A study of Mus musculus with 66 samples.

Results

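Serotonin receptor mRNAs were followed in punches of the mouse ventral striatum, which the study calls the nucleus accumbens (NAcc), over the day after 1 injection of cocaine or saline. The 10 genes described are Htr1a, Htr1b, Htr1d, Htr1f, Htr2a, Htr2c, Htr3a, Htr4, Htr6 and Htr7, chosen as the rows of the expression table that carry these symbols, and they are 10 of the 24138 genes in the table. The design held 66 libraries in 22 groups of 3. All mice were C57BL/6 per the labels, and per the study's reporting summary they were males of 3 to 5 months on a C57BL/6J background. They lived under 12 h of light and 12 h of dark, and zeitgeber time (ZT) counts hours from lights on. WT mice and iMSN-D2RKO mice were injected i.p. at ZT3 with cocaine at 20 mg/kg or with saline and were killed at ZT7, ZT11, ZT15, ZT19 or ZT23. The ZT3 group of each genotype is listed under both treatments and serves as the first time point of both series. iMSN-D2RKO mice carry floxed D2R (Drd2) alleles and a Cre recombinase driven by the D1R promoter, and per the study's methods they lose D2R from the indirect pathway medium spiny neurons because embryonic spiny neuron precursors share both receptors. Values are FPKM, fragment counts scaled to transcript length and library size, so levels of different genes can be set side by side. The number of reads per library is not given in the sources used here.

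Serotonin reaches the NAcc through axons of the raphe nuclei, and its receptors fall into classes by the signal they give. The Htr1 receptors couple to Gi and Go proteins and lower cAMP, the Htr2 receptors couple to Gq and activate phospholipase C, Htr4, Htr6 and Htr7 couple to Gs and raise cAMP, and Htr3a is a subunit of an ion channel. Cocaine blocks the serotonin transporter as well as the dopamine transporter. Htr1b is known as a receptor of axon terminals, Htr2c as a receptor whose mRNA is edited and which is very abundant in the choroid plexus, and Htr6 as a receptor enriched in striatal neurons.

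The sequences just before the start sites of Htr6, Htr2c and Htr2a are shown because the results by ZT below turn on these genes. Htr6 was called over time points in WT cocaine mice, and the others between dark and light in iMSN-D2RKO saline mice. The sequences were taken from a set of RefSeq promoters with build GRCm38.p6. Stretches of 8 of the 10 receptors were used from this set, and bases lying in annotated exons were left out. The stretch of Htr6 is chr4:139075571-139075820 on the minus strand, that of Htr2c is chrX:146962263-146962512 on the plus strand and that of Htr2a is chr14:74640624-74640839 on the plus strand. Capitals mark the GC box GGGCGG on either strand.
Htr6: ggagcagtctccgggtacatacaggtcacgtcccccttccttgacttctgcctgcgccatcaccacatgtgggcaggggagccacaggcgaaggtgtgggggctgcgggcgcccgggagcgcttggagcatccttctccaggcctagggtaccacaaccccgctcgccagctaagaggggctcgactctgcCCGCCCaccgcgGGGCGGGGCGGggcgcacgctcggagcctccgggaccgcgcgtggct
Htr2c: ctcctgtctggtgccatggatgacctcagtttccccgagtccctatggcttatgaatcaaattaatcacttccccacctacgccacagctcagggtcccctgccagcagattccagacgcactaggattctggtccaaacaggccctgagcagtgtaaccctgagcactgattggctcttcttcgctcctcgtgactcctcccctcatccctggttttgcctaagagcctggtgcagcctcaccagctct
Htr2a: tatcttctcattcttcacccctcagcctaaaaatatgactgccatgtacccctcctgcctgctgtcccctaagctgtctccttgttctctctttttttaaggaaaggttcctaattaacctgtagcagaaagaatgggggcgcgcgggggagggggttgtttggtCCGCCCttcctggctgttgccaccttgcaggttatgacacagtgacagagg

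The stretch of Htr6 had a GC content of 70.8% and 3 GC boxes, of which a pair shares a base. The stretch of Htr2c had a GC content of 55.6% and no GC box, and that of Htr2a had 51.4% and 1 GC box. Over 32851 RefSeq promoters, 32.7% held a GC box. The E-box CACGTG, which clock proteins are known to bind, was in 6.02% of these promoters, the D-box (TTATGTAA or TTATGCAA) in 493 promoters, the core TGACG of the cAMP response element in 17.8% and TATAAA in 12.4%, counted on both strands. None of these 4 motifs stood in the stretches searched for the 8 receptors, which says only that the letters are not in these windows.

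The labelled tissue was checked against its markers. All 9 spiny neuron markers were detected in every library, with Drd1 from 56.7 to 163 FPKM and Adora2a from 65.3 to 312 FPKM. Gene-level Drd2 ranged from 99.1 to 304 FPKM in WT and from 78.0 to 375 FPKM in iMSN-D2RKO libraries, which does not check a deletion that the study probed at exon 2. Markers of cortical excitatory neurons summed to between 10.9 and 320 FPKM, and those of the choroid plexus to between 5.52 and 1164 FPKM. A set of 13 libraries stood apart from the other members of their groups along the main axis of the variation inside groups, which held 43.6% of that variance. The axis was computed from 9584 genes and the limit was set after the scores had been seen. These libraries are called set-apart libraries. They came from 10 groups of ZT7, ZT15, ZT19 and ZT23, and 12 of the 13 were dark-phase libraries. The first replicate of iMSN-D2RKO saline at ZT7 had a summed FPKM of 690048, against at most 465297 elsewhere, and is called the high-sum library. For several receptor results that rest on these libraries, values are given with and without them.

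Htr1b and Htr2c were the most abundant serotonin receptor mRNAs, and Htr3a was the scarcest. Htr1b averaged 35.9 ± 11.9 FPKM (SD, n = 66) and ranged from 4.84 to 84.7 FPKM, and 89.8% of the genes in the table had a lower mean. Htr2c averaged 27.3 ± 9.16 FPKM and ranged from 7.53 to 52.6 FPKM. Htr1b was above Htr2c in 51 of 66 libraries, while Htr2c was above the next gene, Htr2a, in all 66.

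A second tier held Htr2a, Htr6 and Htr1d, which could not be ordered beyond their spread. Htr2a averaged 7.36 ± 2.49 FPKM (SD, n = 66), Htr6 6.37 ± 2.19 FPKM and Htr1d 6.05 ± 1.56 FPKM. Htr2a was above Htr6 in 37 of 66 libraries and Htr6 was above Htr1d in 35 of 66. Htr1d was above Htr1a in 65 of 66 libraries.

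Htr1a, a receptor known best from raphe cell bodies and the hippocampus, averaged 2.49 ± 1.05 FPKM (SD, n = 66), and Htr7 averaged 2.23 ± 0.816 FPKM. Htr1a was above Htr7 in 34 of 66 libraries, so this pair could not be ordered either. Htr4 averaged 1.37 ± 0.433 FPKM, Htr1f 1.24 ± 0.481 FPKM and Htr3a 0.629 ± 0.196 FPKM. Htr7 was above Htr4 in 58 libraries, Htr4 above Htr1f in 44 and Htr1f above Htr3a in 61. Htr3a reached 1 FPKM in only 3 of 66 libraries, and Htr1f and Htr4 reached it in 50 and 54.

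**Figure D1:**
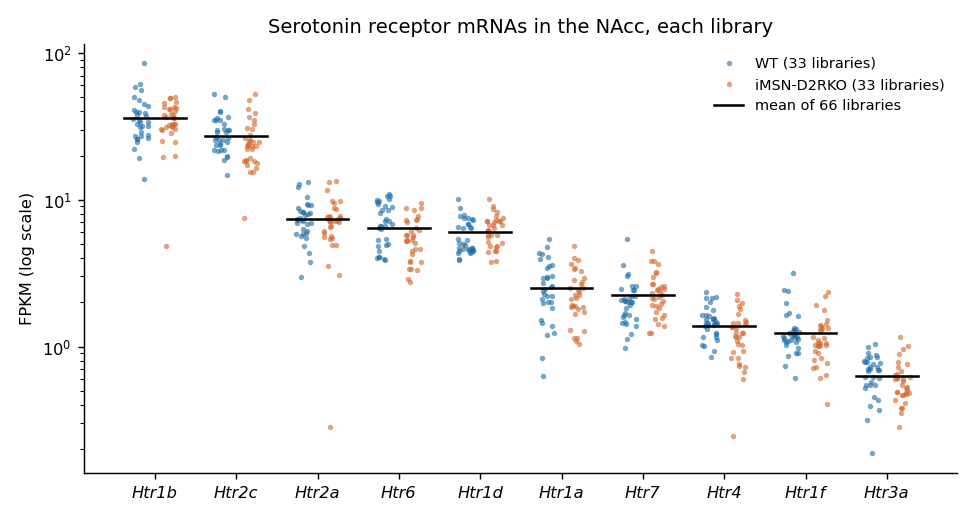
Each point is the FPKM (log scale) of 1 receptor in 1 library, with WT libraries in blue, iMSN-D2RKO libraries in orange and the mean of 66 libraries as a bar. Htr1b and Htr2c lie at means of 35.9 and 27.3 FPKM, well above the other receptors, and 1 iMSN-D2RKO library lies far below the rest for Htr1b, Htr2a and Htr4.

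The lone low points belonged to the high-sum library. There Htr1b was 4.84 FPKM against 30.3 and 31.7 FPKM in the other libraries of its group, Htr2a was 0.282 FPKM against 4.93 and 5.90 FPKM, Htr2c was 7.53 FPKM against 18.3 and 17.2 FPKM and Htr4 was 0.248 FPKM against 1.03 and 0.736 FPKM. These 4 values and the Htr1f value of 0.404 FPKM were the lowest of all 66 libraries. Htr1d at 9.02 FPKM and Htr3a at 1.16 FPKM were instead the highest of their group, and the Htr3a value was the highest of all libraries. The same library had the highest Penk (9282 FPKM) and Ppp1r1b (3779 FPKM), which are spiny neuron markers. The part of this library in the tests of the receptors was measured by leaving it out.

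Positions are those of the GRCm38 build. Of the Htr1 genes, Htr1b spans chr9:81628291-81633828, Htr1a chr13:105443639-105448122, Htr1d chr4:136423524-136444398 and Htr1f chr16:64924729-65105854. Htr2c spans chrX:146962513-147197277 and hosts Snora35 and 7 miRNA genes, none of which overlaps its exons, and Htr2a spans chr14:74640840-74709494. Htr6 spans chr4:139061108-139075570, Htr7 chr19:35958734-36057507 and Htr3a chr9:48899213-48911099. The exons of Htr1b overlap those of the antisense gene D430036J16Rik, and Htr3a overlaps the antisense gene Gm32335 outside its exons. The libraries were stranded, but whether strand was used in counting is not given in the sources used here, so the Htr1b value may hold antisense reads.

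The level at which the other genes of the serotonin system stood gives the setting. Of the other listed receptors only Htr5a was above 1 FPKM on average, with a mean of 2.70 FPKM over the 66 libraries, while Htr5b averaged 0.210 FPKM, Htr2b 0.0776 FPKM and Htr3b 0.0235 FPKM. Slc6a4, the serotonin transporter, averaged 0.0206 FPKM and was listed at 0 in 25 libraries, and Tph2, the neuronal enzyme of serotonin synthesis, averaged 0.193 FPKM. Fev, a transcription factor of raphe neurons, was listed at 0 in 53 of 66 libraries, and Tph2, Slc6a4 and Fev together summed to at most 0.451 FPKM. The breakdown enzymes Maoa and Maob averaged 9.56 and 12.5 FPKM. In bulk tissue, fewer cells of a type and less RNA per cell cannot be told apart.

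The first comparison asked whether cocaine changed the receptors. Averaged over ZT7 to ZT23, none of the 10 receptors passed the test in either genotype. The test was limma on log2(FPKM + 1) with Benjamini-Hochberg adjustment over 14643 genes, and a gene is called at an adjusted p under 0.05. In WT 0.0137% of all genes were called (2 genes) and in iMSN-D2RKO 0%, so few genes of any kind passed. At an unadjusted p under 0.05 there was 1 receptor in each genotype, Htr1d in WT and Htr1b in iMSN-D2RKO, beside 2.49% and 4.86% of all genes.

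Htr1d, a receptor of axon terminals like Htr1b, ranged in WT saline mice from 3.92 to 7.90 FPKM with a median of 4.68 FPKM (n = 15), and in WT cocaine mice from 4.52 to 10.2 FPKM with a median of 6.81 FPKM (n = 15). The ranges overlap widely, and the middle of the cocaine libraries lies higher. The difference was 0.28 ± 0.10 on the log2(FPKM + 1) scale (estimate ± SE) with an unadjusted p of 0.00832 and a limma adjusted p of 1. In iMSN-D2RKO mice the difference was 0.09 ± 0.10, with a 95% interval from -0.11 to 0.30. The difference between the genotypes was -0.18 ± 0.14 with a limma adjusted p of 1.

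Htr1b ranged in iMSN-D2RKO saline mice from 4.84 to 45.4 FPKM with a median of 32.1 FPKM (n = 15) and in iMSN-D2RKO cocaine mice from 19.9 to 50.0 FPKM with a median of 40.4 FPKM (n = 15). The difference was 0.37 ± 0.16 on the log2(FPKM + 1) scale with an unadjusted p of 0.0241 and a limma adjusted p of 0.910. In WT it was 0.21 ± 0.16 with a 95% interval from -0.11 to 0.53. The difference of the cocaine effect between genotypes was called for none of the receptors and for 0% of all genes by limma, and at an unadjusted p under 0.05 for none of the receptors and 1.85% of all genes. The receptors' differences ranged from -0.19 to 0.28 in WT and from -0.16 to 0.37 in iMSN-D2RKO, with medians of 0.02 and 0.07 beside medians of -0.00 and -0.01 over all genes tested.

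**Figure D2:**
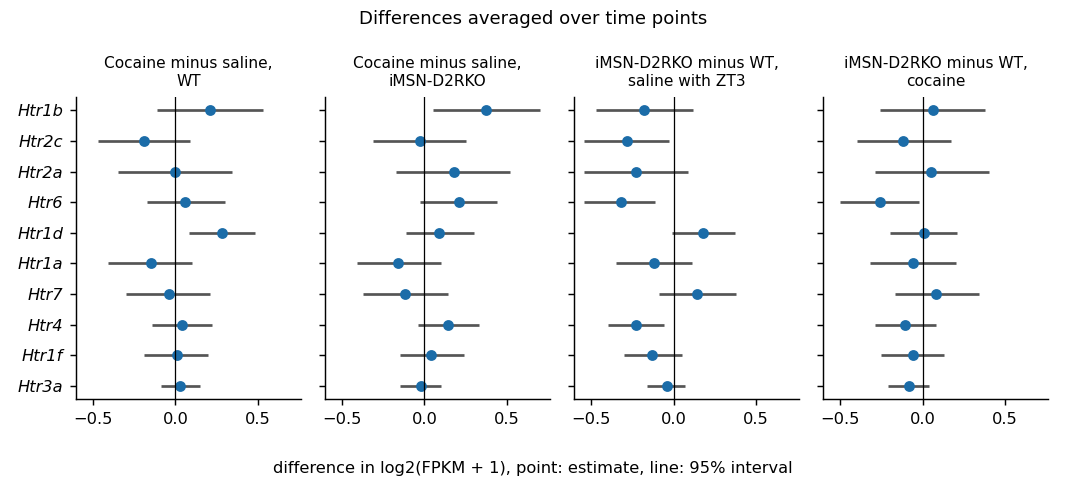
Differences of each receptor in log2(FPKM + 1) with their 95% intervals, for cocaine minus saline in WT and in iMSN-D2RKO over ZT7 to ZT23, and for iMSN-D2RKO minus WT after saline (with ZT3) and after cocaine. The intervals of Htr1d in WT and of Htr1b in iMSN-D2RKO lie above 0 in the cocaine panels, and those of Htr6, Htr4 and Htr2c lie below 0 in the saline genotype panel, as does that of Htr6 after cocaine, though none of these passed the adjusted test.

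At single time points no receptor passed the limma test in either genotype. The share of all genes called in WT was 0.00683% at ZT7, 0% at ZT11, 0.00683% at ZT15, 0.0205% at ZT19 and 0% at ZT23, and in iMSN-D2RKO it was 0.0137% at ZT7 and 0% at ZT11, ZT15, ZT19 and ZT23. At an unadjusted p under 0.05 there were in WT 1 receptor at ZT15 (Htr1d) and 1 at ZT19 (Htr1a), and in iMSN-D2RKO 3 at ZT7 (Htr2a, Htr2c and Htr4), 1 at ZT19 (Htr2c) and 1 at ZT23 (Htr1d). The shares of all genes at this threshold in WT were 1.81% at ZT7, 0.683% at ZT11, 6.79% at ZT15, 4.90% at ZT19 and 1.28% at ZT23. In iMSN-D2RKO they were 22.9% at ZT7, 0.410% at ZT11, 1.49% at ZT15, 16.0% at ZT19 and 1.67% at ZT23.

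At ZT15 in WT mice 4 of 10 receptors had cocaine and saline libraries that did not overlap, beside 12.6% of all genes tested. Htr6 was 10.03, 9.75 and 10.7 FPKM after cocaine and 7.12, 7.15 and 7.40 FPKM after saline, a difference of 0.44 ± 0.26 on the log2(FPKM + 1) scale with a limma adjusted p of 0.823. Htr1d was 7.56, 5.35 and 10.2 FPKM after cocaine and 3.95, 4.88 and 3.92 FPKM after saline, a difference of 0.69 ± 0.23 (log2(FPKM + 1) scale, unadjusted p = 0.00368, limma adjusted p = 0.345). Htr2c lay the other way, at 19.8, 21.97 and 14.7 FPKM after cocaine and 29.0, 29.0 and 30.1 FPKM after saline, a difference of -0.63 ± 0.31 with a limma adjusted p of 0.742. Htr1f was 1.071, 1.103 and 1.067 FPKM after cocaine and 1.198, 1.334 and 1.177 FPKM after saline, a difference of -0.10 ± 0.21 with a limma adjusted p of 0.993. Htr6 and Htr1d were thus higher and Htr2c and Htr1f lower in every cocaine library at this time. The third cocaine library held the highest Htr6 and Htr1d and the lowest Htr2c and Htr1f of its group. Its score on the main axis was 12.8, against -18.0 and -20.5 in its group. Its interneuron marker sum of 758 FPKM was the lowest of all 66 libraries, though it was not a set-apart library.

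Htr2c was also lower in every WT cocaine library at ZT11, with 19.5, 26.1 and 21.8 FPKM against 35.1, 32.6 and 36.4 FPKM after saline. It was the only receptor whose groups did not overlap there, beside 11.7% of all genes. At ZT19 the groups overlapped, with 49.8, 34.7 and 40.5 FPKM after cocaine and 26.8, 39.7 and 25.5 FPKM after saline. A pair of the 3 libraries in each of these ZT19 groups were set-apart libraries. The WT difference of Htr2c averaged over time points was -0.19 ± 0.14, and its 95% interval ran from -0.47 to 0.09.

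In iMSN-D2RKO mice Htr2c at ZT7 was 23.8, 41.6 and 22.1 FPKM after cocaine and 7.53, 18.3 and 17.2 FPKM after saline, and at ZT19 it was 19.3, 18.3 and 15.6 FPKM after cocaine and 32.7, 26.1 and 47.5 FPKM after saline. The groups did not overlap at either time and lay in opposite order. Of all genes tested, 15.1% did not overlap at ZT7, where 2 receptors did not (Htr2c and Htr4), and 14.8% at ZT19, where Htr2c alone did not. The differences were 1.01 ± 0.31 (limma adjusted p = 0.114) and -0.92 ± 0.31 (limma adjusted p = 0.304) on the log2(FPKM + 1) scale. The value of 7.53 FPKM came from the high-sum library, the value of 41.6 FPKM at ZT7 from a set-apart library and the values of 32.7 and 47.5 FPKM at ZT19 from set-apart libraries. Without the high-sum and the set-apart libraries the ZT7 means were 22.9 FPKM after cocaine (n = 2) and 17.8 FPKM after saline (n = 2). At ZT19 only 1 saline library was left, at 26.1 FPKM, against a mean of 17.7 FPKM after cocaine (n = 3).

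Htr1b in iMSN-D2RKO mice had a narrow spread at ZT15, with 50.0, 48.9 and 49.6 FPKM after cocaine and 38.3, 36.4 and 35.9 FPKM after saline. At ZT23 it was 40.4, 42.3 and 41.3 FPKM after cocaine and 37.5, 19.6 and 24.8 FPKM after saline, so the groups again did not overlap. The share of all genes without overlap was 4.33% at ZT15, with 1 receptor, and 4.08% at ZT23, with 2 receptors (Htr1b and Htr1d). In WT at ZT15 the cocaine libraries ran from 39.3 to 84.7 FPKM and overlapped the saline libraries at 39.4 to 47.7 FPKM. At the times not yet named 1 receptor each did not overlap, namely Htr1b at ZT7 and Htr1a at ZT19 and ZT23 in WT and Htr3a at ZT11 in iMSN-D2RKO, beside 9.06%, 8.84%, 4.53% and 4.98% of all genes. The single highest Htr1b value of the study, 84.7 FPKM, came from the third WT cocaine library of ZT15, described above.

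The second comparison asked whether the receptors differed between iMSN-D2RKO and WT mice. None passed the test after saline, where 0.212% of all genes were called, or after cocaine, where 0.109% were called. At an unadjusted p under 0.05 there were 3 receptors after saline (Htr6, Htr4 and Htr2c) and 1 after cocaine (Htr6), all with lower estimates in iMSN-D2RKO, beside 10.5% and 4.95% of all genes. After saline 8 of the 10 estimates were negative, with a median of -0.15 beside 0.01 over all genes tested.

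Htr6 over the 6 time points without cocaine ranged in WT from 3.87 to 10.96 FPKM with a median of 6.74 FPKM (n = 18), and in iMSN-D2RKO from 2.77 to 9.46 FPKM with a median of 5.32 FPKM (n = 18). The difference was -0.32 ± 0.11 on the log2(FPKM + 1) scale with an unadjusted p of 0.00407 and a limma adjusted p of 0.213. After cocaine Htr6 ranged in WT from 3.93 to 10.7 FPKM with a median of 8.55 FPKM and in iMSN-D2RKO from 3.36 to 8.77 FPKM with a median of 5.71 FPKM (n = 15 each), a difference of -0.26 ± 0.12 with a limma adjusted p of 0.952. The saline and cocaine comparisons use different libraries, since ZT3 entered only the first. Without the set-apart libraries the Htr6 means were 7.48 and 6.10 FPKM in WT and iMSN-D2RKO mice without cocaine and 8.07 and 6.29 FPKM after cocaine.

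Htr4 without cocaine ranged in WT from 0.937 to 2.15 FPKM with a median of 1.43 FPKM and in iMSN-D2RKO from 0.248 to 2.29 FPKM with a median of 1.12 FPKM (n = 18 each). Its difference was -0.23 ± 0.08 with a limma adjusted p of 0.261. For Htr2c the WT range was 21.6 to 52.6 FPKM with a median of 29.3 FPKM, and the iMSN-D2RKO range was 7.53 to 52.3 FPKM with a median of 24.9 FPKM. Its difference was -0.28 ± 0.13 with a limma adjusted p of 0.403. The lowest iMSN-D2RKO values of Htr4 and Htr2c, 0.248 and 7.53 FPKM, came from the high-sum library. Without the set-apart libraries the means in WT and iMSN-D2RKO mice were 1.44 and 0.983 FPKM for Htr4. For Htr2c they were 28.6 and 21.8 FPKM. With the score of each library on the first axis as a covariate, Htr6, Htr4 and Htr2c were all called as lower in iMSN-D2RKO. The differences were -0.31, -0.24 and -0.31 with limma adjusted p-values of 0.0404, 0.0463 and 0.0491, while 473 genes were called in all against 31. For each of these receptors 12 of 13 alternatives left it uncalled, and only this fit called it. The genes behind the score include Htr6 and Htr2c themselves.

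The third comparison followed the receptors over the day. All injections were given at ZT3, so time of day and hours since the injection cannot be told apart in any series. Htr6 was the only receptor called for any difference among the 6 time points, and this was in WT cocaine mice, where 28.0% of all genes were called. In WT saline mice 1.60%, in iMSN-D2RKO saline mice 3.49% and in iMSN-D2RKO cocaine mice 0.997% of all genes were called, and no receptor by limma. At an unadjusted p under 0.05 there were 2 receptors in WT saline, 4 in WT cocaine, 4 in iMSN-D2RKO saline and none in iMSN-D2RKO cocaine, beside 19.1%, 41.4%, 30% and 14.2% of all genes. With 1 of 10 receptors against 28.0% of all genes in WT cocaine, the count lies below the background.

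Htr6 in WT cocaine mice was high until ZT15 and low at ZT19 and ZT23. At ZT3 it was 9.42, 6.66 and 6.62 FPKM, at ZT7 10.6, 8.55 and 5.39 FPKM and at ZT11 9.59, 8.95 and 9.01 FPKM. At ZT15 it was 10.03, 9.75 and 10.7 FPKM, at ZT19 4.50, 3.93 and 4.83 FPKM and at ZT23 4.02, 6.37 and 4.05 FPKM. The ZT15 and ZT19 groups did not overlap, with means of 10.1 ± 0.464 and 4.42 ± 0.457 FPKM (SD, n = 3 each), and 39.7% of all genes tested did not overlap between these groups. The limma F test gave an adjusted p of 0.00598.

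Of the 3 WT cocaine libraries, 2 at ZT19 and 1 at ZT23 were set-apart libraries. The remaining ZT19 library, at 3.93 FPKM, was the lowest of its group. It had the highest score on the main axis of all libraries not set apart (15.1) and the highest interneuron marker sum in WT (2478 FPKM). Its Htr1b was 13.9 FPKM, against 31.9 and 56.1 FPKM in its group. A fit without the set-apart libraries rests on this 1 library at ZT19, so it cannot decide whether the Htr6 call holds. Leaving out the first or the third replicate of every group ended the call, with adjusted p-values of 0.149 and 0.104. In WT saline mice Htr6 was 7.12, 7.15 and 7.40 FPKM at ZT15 and 3.87, 4.08 and 6.81 FPKM at ZT19, where the 2 lower values came from set-apart libraries, and the adjusted p of the F test was 0.317.

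**Figure D3:**
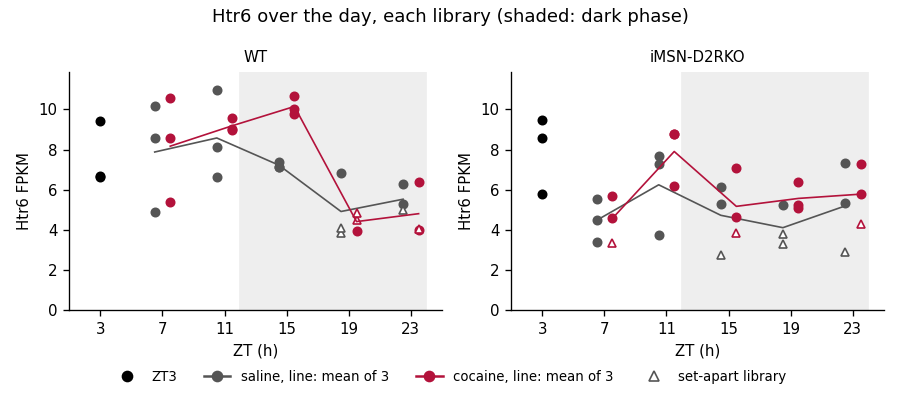
Htr6 FPKM in each library by ZT in hours, for WT and iMSN-D2RKO mice, with saline in grey, cocaine in red, ZT3 in black, lines through the means of 3 and open triangles for set-apart libraries. In WT cocaine mice the ZT15 libraries lie at 9.75 to 10.7 FPKM and the ZT19 libraries at 3.93 to 4.83 FPKM.

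Summed up by phase, Htr6 had lower dark than light estimates in all 4 series, without passing the test in any of them. Dark libraries were those of ZT15, ZT19 and ZT23 and light libraries those of ZT3, ZT7 and ZT11. The dark minus light difference was -0.38 ± 0.15 in WT saline, -0.39 ± 0.15 in WT cocaine, -0.34 ± 0.15 in iMSN-D2RKO saline and -0.23 ± 0.15 in iMSN-D2RKO cocaine, with limma adjusted p-values of 0.113, 0.0730, 0.0821 and 0.549. The series of a genotype share their ZT3 libraries. Set-apart libraries lay lower in Htr6 than the rest of their group in 9 of 10 groups, with a median difference of -0.49 on the log2(FPKM + 1) scale, and most of them were dark-phase libraries. Their part in the phase difference was measured by leaving them out. This gave differences of -0.22 in WT saline, -0.40 in WT cocaine and -0.04 in iMSN-D2RKO saline, each with 1 library left at ZT19. In iMSN-D2RKO cocaine the means without set-apart libraries were 7.23 FPKM in the light (n = 8) and 5.92 FPKM in the dark (n = 7).

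On all libraries Htr2c, Htr4 and Htr2a were called as higher in the dark phase of iMSN-D2RKO saline mice. This was the only series in which any receptor passed the dark minus light test. In that series 27.3% of all genes were called and 17.4% were called as higher in the dark, against 3 of 10 receptors. The count of receptors called thus lies near the share of all genes called. The shares called were 2.75% in WT saline, 13.7% in WT cocaine and 0.942% in iMSN-D2RKO cocaine, and there limma called no receptor, with 1 receptor at an unadjusted p under 0.05 in each, beside 27.2, 34.5 and 12.5% of all genes.

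Htr2c in iMSN-D2RKO saline mice had a lowest, median and highest value of 7.53, 18.3 and 34.7 FPKM in the light and of 16.4, 30.4 and 52.3 FPKM in the dark (n = 9 each). The difference was 0.64 ± 0.18 on the log2(FPKM + 1) scale with a limma adjusted p of 0.0147. For Htr4 the same values were 0.248, 0.842 and 1.47 FPKM in the light and 0.599, 1.36 and 2.29 FPKM in the dark, a difference of 0.35 ± 0.12 with a limma adjusted p of 0.0286. For Htr2a they were 0.282, 5.90 and 8.65 FPKM in the light and 3.55, 7.42 and 13.5 FPKM in the dark, a difference of 0.57 ± 0.22 with a limma adjusted p of 0.0487. The light and dark ranges overlapped for all 3 receptors.

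These calls rested on few libraries. The dark-phase libraries of this series held 4 set-apart libraries, which were the 4 highest of the dark Htr2c values, at 38.7, 32.7, 47.5 and 52.3 FPKM, and the light-phase libraries held the high-sum library, the lowest. Without these, the differences were 0.18 for Htr2c, 0.15 for Htr4 and -0.08 for Htr2a, whose direction thus turned, with limma adjusted p-values of 0.630, 0.60 and 0.897. Htr2c then averaged 22.2 FPKM in the light (n = 8) and 23.96 FPKM in the dark (n = 5), Htr2a 6.30 and 5.78 FPKM and Htr4 0.956 and 1.17 FPKM. Without the set-apart libraries alone the limma adjusted p-values were 0.515 for Htr2c, 0.854 for Htr2a and 0.529 for Htr4. Without the high-sum library alone Htr2c stayed called (difference 0.52, adjusted p = 0.0378), and Htr4 and Htr2a had adjusted p-values of 0.0740 and 0.200. In WT saline mice the dark minus light differences were 0.01 for Htr2c, -0.03 for Htr4 and 0.09 for Htr2a, and a test of the dark minus light difference between the genotypes was not made.

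**Figure D4:**
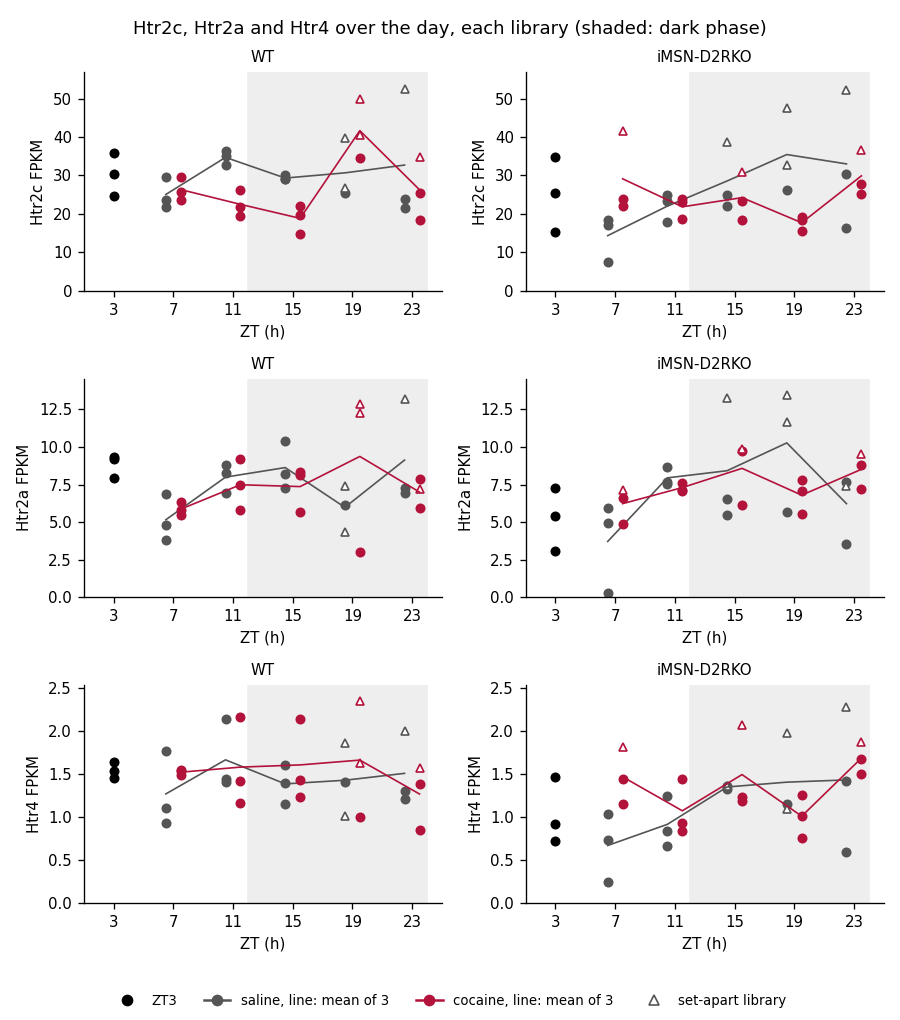
Htr2c, Htr2a and Htr4 FPKM in each library by ZT in hours, for WT and iMSN-D2RKO mice, with saline in grey, cocaine in red, ZT3 in black, lines through the means of 3 and open triangles for set-apart libraries. In the dark phase of iMSN-D2RKO saline mice the highest Htr2c values, 38.7 to 52.3 FPKM, are set-apart libraries.

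Rhythm was tested in each series with JTK_CYCLE at the study's threshold of 0.01, and no receptor passed it. The periods tried were 20 and 24 h, a narrower window than the study's. Of all genes tested, 9.65% passed in WT saline, 9.04% in WT cocaine, 2.66% in iMSN-D2RKO saline and 0.932% in iMSN-D2RKO cocaine mice. The smallest corrected p of the receptors was 0.0154, for Htr6 in WT saline and for Htr1b in iMSN-D2RKO cocaine. Their Benjamini-Hochberg values over all genes tested with JTK_CYCLE were 0.111 and 0.961. The best curve of Htr6 in WT saline had a period of 20 h and its peak 6 h after ZT3, with 1 value left out by Dixon's test, and in WT cocaine, with a corrected p of 0.0584, a period of 24 h and the same peak, with 2 values left out. Htr1b in iMSN-D2RKO cocaine had its peak 14 h after ZT3 with a period of 20 h and 1 value left out. Without the set-apart libraries these corrected p-values were 0.216, 0.107 and 0.259. Htr3a never reached 1 FPKM in WT saline or iMSN-D2RKO cocaine mice and was not tested there.

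Differences in a 24 h cosine between series were tested over the 60 libraries after ZT3, and limma called 0% of all genes and no receptor for cocaine against saline in WT, 0% for cocaine against saline in iMSN-D2RKO, 0% for iMSN-D2RKO against WT after saline and 0% after cocaine. At an unadjusted p under 0.05 the receptors were none, 2 (Htr2c and Htr4), 1 (Htr2c) and 1 (Htr6) in this order, beside 1.24, 10.7, 4.09 and 5.85% of all genes. The smallest of these, for Htr2c between cocaine and saline in iMSN-D2RKO mice, was an unadjusted p of 0.00142 with a limma adjusted p of 0.452. Htr2c in iMSN-D2RKO mice averaged 17.7 ± 1.93 FPKM at ZT19 after cocaine and 35.4 ± 10.9 FPKM after saline (SD, n = 3 each). Of these saline libraries 2 were set-apart libraries, and the remaining 1 was at 26.1 FPKM.

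No other receptor passed a test over the day on all libraries, though single groups lay apart. Htr1a had its highest group mean at ZT23 in WT saline mice, 4.82 ± 0.529 FPKM (SD, n = 3), with 5.36, 4.77 and 4.31 FPKM, against 1.23, 1.20 and 2.28 FPKM at ZT19, and the limma adjusted p over time points was 0.0935. The values of 5.36, 1.23 and 1.20 FPKM came from set-apart libraries, and without the set-apart and high-sum libraries the adjusted p was 0.519. The summed cortical markers of the same libraries were 212, 289 and 227 FPKM at ZT23 and 93.0, 36.7 and 79.3 FPKM at ZT19, beside a median of 141 FPKM over all 66. With the cortical marker sum as a covariate the adjusted p was 0.276. Htr1b in WT was 61.6, 43.4 and 50.2 FPKM at ZT3 and 27.4, 24.6 and 19.4 FPKM at ZT7 after saline, which do not overlap, as was so for 20.6% of all genes, with an adjusted p over the WT saline time points of 0.225 and, without the set-apart and high-sum libraries, of 0.0379. Htr7 had the smallest spread of group means among the receptors above 2 FPKM, with an SD of 0.16 between groups and 0.36 within groups on the log2(FPKM + 1) scale.

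The serotonin and signalling genes around the receptors were read from a list of receptor partners, enzymes and effectors, of which 37 passed the filter of 1 FPKM. Limma called none of them for cocaine or for genotype averaged over time points, with 1 and 3 at an unadjusted p under 0.05 for cocaine in WT and iMSN-D2RKO and 3 and none for genotype after saline and after cocaine. For any difference among time points, 9 of 37 (24.3%) were called in WT cocaine mice, beside the 28.0% of all genes. These were 3 genes of serotonin synthesis, transport and breakdown, 2 G protein subunits, 2 adenylyl cyclases and 2 GIRK channels.

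In the dark minus light test of iMSN-D2RKO saline mice 4 of 37 (10.8%) were called, against 27.3% of all genes. Ddc, which makes serotonin and dopamine from their precursors, rose by 0.38 ± 0.13 on the log2(FPKM + 1) scale (limma adjusted p = 0.0282). Gnaq, the G protein subunit of the Htr2 receptors, rose by 0.33 ± 0.12 (adjusted p = 0.0356), and Gnai1, a subunit of the Htr1 receptors' pathway, rose by 0.49 ± 0.15 (adjusted p = 0.0204). Slc22a3, a low-affinity monoamine transporter, fell by 0.41 on this scale (adjusted p = 0.0260). In WT cocaine mice 1 of 37 was called, Plcb3, a phospholipase C, with a rise of 0.20 ± 0.07 (adjusted p = 0.0409). None of the 37 was called in WT saline or iMSN-D2RKO cocaine mice, where 4 and 1 had an unadjusted p under 0.05. The calls of listed genes used all libraries, and their values without the set-apart or high-sum libraries are not given. Calls over all genes went from 4001 to 0 with a separate fit of the series in iMSN-D2RKO saline mice. In WT cocaine mice they went from 2004 to 0 without the third replicates.

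Receptors that varied together within groups were described by Pearson's r of log2(FPKM + 1) after removal of the 22 group means, over 66 libraries. All genes of a library share its RNA, dissection and depth, so r is given without a test. Htr2a and Htr1f had an r of 0.74, Htr2c and Htr1f 0.70, Htr2c and Htr4 0.68, Htr1b and Htr2a 0.68 and Htr2c and Htr2a 0.61. Without the high-sum library that of Htr1b and Htr2a was 0.48, and without the set-apart libraries that of Htr2c and Htr1f was 0.48. Htr6 had an r of -0.26 to Htr2c, of -0.35 to Htr1f and of 0.35 to Htr1b, which were 0.29, -0.04 and 0.38 without the set-apart libraries.

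Receptors also differed between the set-apart libraries and the rest of their groups. Htr2c was higher in the set-apart libraries in 10 of 10 groups, with a median difference of 0.62 on the log2(FPKM + 1) scale, and Htr1f was higher in 10 of 10 with 0.53. Htr2a and Htr4 were higher in 9 of 10 groups each, with 0.36 and 0.29, Htr1d was higher in 7 of 10 with 0.35, and Htr6 was lower in 9 of 10 with -0.49. Htr1b had a median difference of -0.04 and was higher in 4 of 10. The score that defines these libraries was computed over genes with a mean above 5 FPKM, among them Htr1b, Htr2c, Htr2a, Htr6 and Htr1d, so these differences are a description.

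Markers of neighbouring tissue moved with several receptors. Htr1a had an r of 0.65 with the sum of 9 cortical excitatory neuron markers, which ranged from 10.9 to 320 FPKM, and of 0.78 without the set-apart libraries. Htr7 had an r of 0.67 with the sum of septal markers, which had a median of 14.6 and a maximum of 50.3 FPKM, and of -0.59 with the sum of spiny neuron markers. Htr2a, Htr1f and Htr2c had an r of 0.73, 0.75 and 0.64 with the sum of Nr4a2 and Gnb4, the measured markers of the claustrum and endopiriform nucleus. Htr1b had an r of -0.69 with the interneuron markers, and of -0.47 without the high-sum library. The part of the dissection in the receptor levels was not tested beyond a fit with the cortical marker sum as a covariate, under which Htr4 lost its dark-phase call in iMSN-D2RKO saline mice (adjusted p = 0.0577).

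Within groups Htr2c did not follow the choroid plexus markers. The choroid plexus markers summed to 1164 FPKM in 1 library, the first replicate of iMSN-D2RKO saline at ZT11, where Htr2c was 17.8 FPKM and the lowest of its group. Ttr, the most abundant of these markers, was listed at 0 in 18 libraries and had a median of 0.126 FPKM. The r of Htr2c with the choroid plexus sum was -0.06 with group means removed, so it leaves out differences between groups. At ZT3 the choroid plexus sums were 110, 73.6 and 124 FPKM in WT and 115, 63.4 and 180 FPKM in iMSN-D2RKO. The median over all 66 libraries was 11.2 FPKM. ZT3 is the first time point of both series, and the part of this difference in the results over time points was not tested.

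**Figure D5:**
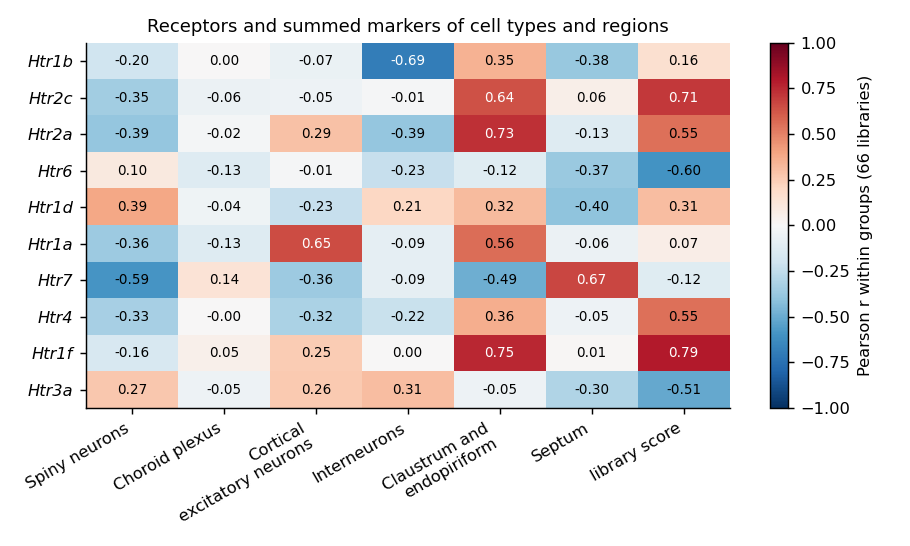
Pearson's r within groups over 66 libraries between each receptor (rows) and the summed markers of 6 cell types or regions and the library score (columns), from -1 in blue to 1 in red. Htr1a stands out with the cortical markers (0.65), Htr7 with the septal markers (0.67) and Htr1f and Htr2c with the library score (0.79 and 0.71).

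The genes most like each receptor were sought among 12945 genes with a mean of at least 1 FPKM, for the 9 receptors that reach this mean, again over 66 libraries with group means removed. For Htr1b they were Rnf44 (r = 0.90), Klhl34 (0.88) and Sesn3 (0.87), for Htr2c Hspa13, Acvr2a and Impact (0.91 each) and for Htr2a Lmbrd2 (0.90), Mtmr9 (0.88) and Frmpd4 (0.88). For Htr1f they were Cacna2d1 (0.88), Mef2c (0.88) and Slitrk4 (0.87), and for Htr4 Rasgrf2 (0.79), Cntnap2 (0.79) and Cntnap5a (0.78).

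For Htr1a they were Ntsr1 (r = 0.90), a neurotensin receptor, Cadps2 (0.86) and Thsd7b (0.82), and for Htr7 Igsf1 (0.85), Cd83 (0.85) and Slc22a4 (0.84). Htr6 and Htr1d had less close neighbours, with Cops7b (0.78), Jph4 (0.75) and Fam132a (0.75) for Htr6 and Gpr83 (0.75), Ajap1 (0.73) and Mras (0.73) for Htr1d. Of these 27 genes 7 kept their place among the 3 closest without the set-apart libraries, 8 with the library score removed and 14 without the high-sum library. Lmbrd2 for Htr2a and Cadps2 for Htr1a kept it also without centring, with the score removed and when the set-apart libraries were left out.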

How the data were processed

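RNA of NAcc punches was sequenced by the authors from stranded, poly(A)-selected single-end libraries. Per the study's methods, reads were aligned to mm10 with TopHat and Bowtie2, and the deposited FPKM per gene were computed by the authors with Cufflinks, Cuffmerge, Cuffquant and Cuffnorm. The submitters' notes name CASAVA 1.8.2. Cuffnorm options are not given in the sources used here. Read depth is unknown, so precision was taken from the 3 replicates. The 6 ZT3 libraries are listed in both series with identical values and were used once. The series' design text gives 3 animals per time point and the study's text a larger number, so whether a library is 1 animal is not given, and p-values measure the spread between these libraries.

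Levels were tested with limma 3.58.1 (R 4.3.3) on log2(FPKM + 1) in 1 fit of 22 group means, with a trend and Benjamini-Hochberg adjustment over the 14643 genes that reached 1 FPKM in any library, which all 10 receptors reached. This scale understates the changes of low genes. JTK_CYCLE was rewritten in Python 3.11.15 with numpy 2.4.6 and scipy 1.17.1, with periods of 20 and 24 h and Dixon's test at 95% for 1 replicate a time point. Several orders of breaking ties between time points were tried against the study's own list, and the plain one was kept. Both were tested on simulated data.

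Set-apart libraries have a score above 30 on the first principal axis of 9584 genes with a mean above 5 FPKM, centred within groups. Same-numbered replicates had a median correlation of -0.00269 and others 0.00322, so they were not treated as paired. The members and lists were chosen with earlier results of these data known. The genes named are all receptors, Drd2, Slc6a4, Tph2, listed genes called in a contrast averaged over time points, and the 3 genes most like each receptor, and other listed genes and markers are given as levels. Positions come from GENCODE on GRCm38. Alternatives were another pseudocount of 0.1, no filter, median ratio scaling, left-out replicates, a replicate block, left-out set-apart or high-sum libraries, the library score as covariate and separate fits.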

Additional observations from a re-analysis of the deposited data

How the results depend on the processing

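Of 438 alternatives to 34 results on single receptors, 393 kept the side of the threshold, 19 passed it where the reported test did not, 25 lost it and 1 reversed, which was Htr2a between dark and light in iMSN-D2RKO saline without the set-apart and high-sum libraries (-0.08, adjusted p = 0.897). Shares of all genes were not set beside most of the receptor counts that follow, and calls over all genes moved too, as given below. Without the set-apart libraries 1 library was left at ZT19 in WT saline, WT cocaine and iMSN-D2RKO saline. Counts over time points and between dark and light from such fits are therefore not given. The count of receptors called for any difference among time points was 1 as reported, 4 with separate fits of each series and 5 without the high-sum library. It ran from 0 to 2 with a replicate left out. The 3 reported dark minus light calls were lost without the set-apart libraries, as given above. The dark minus light count was 3, then 0 with the library score as covariate, 1 with separate fits and 1 without the high-sum library. It ran from 0 to 5 with a replicate left out. For genotype after saline it was 0 and became 3 with the library score. For cocaine at single time points the count was 0, and 0 to 1 with a replicate left out. Htr2c at ZT7 in iMSN-D2RKO mice then had an adjusted p of 0.0460 without the third replicates. Without the set-apart libraries 1 library stood against 1 at ZT19 in WT mice, so a count from that fit is not given. The rhythm count was 0, then 1 each without ZT7, ZT11, ZT15 or ZT19, and 0 to 1 with a replicate left out. A threshold of 0.05 gave 2, without a share of all genes to set beside it. A limma cosine fit called 1, Htr6 in WT cocaine (adjusted p = 0.0285), where it called 1983 of 14643 genes. With time points of equal cosine left tied, a choice made after seeing the data as were leaving out the high-sum library, alone or with the set-apart ones, and the cortical covariate, Htr6 in WT saline had a corrected p of 0.0742 and Htr1b in iMSN-D2RKO cocaine 0.0410. Of 27 most alike genes 11 stayed without centring, 7 without the set-apart libraries, 8 with the score removed and 14 without the high-sum library. The cause of these moves was not tested. Fewer libraries also leave less power.

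The replicate numbers did not pair the libraries, since the closest library of another group had the same number for 25 of 66. With a replicate block the counts were 1 for time points and 2 for dark minus light, where Htr2a had an adjusted p of 0.0524, and the cosine fit with the replicate block called 1.

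Counts over all genes moved more. Dark minus light went from 4001 to 0 with separate fits in iMSN-D2RKO saline, from 2004 to 0 without the third replicates in WT cocaine and from 403 to 3311 with separate fits in WT saline. Time points went from 4095 to 86 without the third replicates in WT cocaine and from 235 to 1807 with separate fits in WT saline. The cosine fit went from 1983 to 0 with the library score in WT cocaine and from 1694 to 0 without the first replicates in WT saline. Cocaine at single time points went from 2 to 1270 at ZT7 in iMSN-D2RKO without the third replicates and from 3 to 2714 at ZT19 in WT without the set-apart and high-sum libraries.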
